A study of Mus musculus with 6 samples.

Results

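Metallothioneins and zinc handling were followed through 6 genes, chosen by exact gene symbol from the 55401 gene identifiers of the deposited tables. They were the metallothioneins Mt1 and Mt2, the zinc-sensing transcription factor Mtf1, the zinc exporter Slc30a1, and the zinc importers Slc39a14 and Slc39a10. All 6 were detected in every library and were among the 17194 genes tested. Kidney RNA came from diabetic mice in 2 groups of 3 libraries, labelled as biological replicates: Cdo1KKO/Sed, with the genotype given as KO, and WT/Sed, with the genotype given as WT. Both groups had type 1 diabetes induced with streptozotocin, a toxin that destroys the beta cells, the source of insulin. The stated aim was to find pathways affected by Cdo1 of the renal tubule in diabetic nephropathy. Cdo1 encodes cysteine dioxygenase, which oxidises the amino acid cysteine. Sed is not spelled out in the labels, and the sources used here give no age, no sex and no driver of the gene deletion.

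Metallothioneins are small proteins that are unusually rich in cysteine, and they bind zinc, copper and cadmium through the sulfur of these residues. The free zinc of a cell is set by buffering on metallothioneins, by transporters of the ZnT (Slc30) family that move zinc out of the cytosol, and by those of the ZIP (Slc39) family that move it in. When zinc rises, the factor MTF1 binds metal response elements (MREs) in promoters such as those of Mt1, Mt2 and Slc30a1. In kidney, metallothioneins are known above all for binding cadmium in the proximal tubule, and in liver both metallothioneins and Slc39a14 are known to be induced during inflammation.

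Mt4, Mt3, Mt2 and Mt1 lie in this order on the plus strand of mouse chromosome 8 (GRCm38, GENCODE M21), within 43131 bases from the start of Mt4 to the end of Mt1. Mt2 spans positions 94172664 to 94173568 and Mt1 spans 94179082 to 94180327, and 5513 bases separate them. The coding sequences of Mt1 and Mt2 are shown because they carry the property for which these genes are known. They are also shown because genes alike in sequence could share reads. Capitals mark cysteine codons.
Mt1: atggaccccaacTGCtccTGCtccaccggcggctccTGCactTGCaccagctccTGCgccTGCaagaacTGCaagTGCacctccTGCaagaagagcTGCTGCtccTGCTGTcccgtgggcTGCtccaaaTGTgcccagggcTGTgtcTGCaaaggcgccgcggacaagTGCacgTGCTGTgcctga
Mt2: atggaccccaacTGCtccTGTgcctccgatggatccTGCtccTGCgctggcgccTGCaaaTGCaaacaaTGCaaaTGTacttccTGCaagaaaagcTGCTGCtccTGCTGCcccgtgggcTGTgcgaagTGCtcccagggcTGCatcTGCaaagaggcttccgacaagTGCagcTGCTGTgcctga
Each coding sequence has 186 bases and 61 codons before the stop, of which 20 (32.79%) encode cysteine, and none encodes histidine or an aromatic residue. All 20 cysteine codons stand at the same place in both genes. The 2 coding sequences are identical at 148 of 186 bases (79.57%), and the longest run shared by the full transcripts is 20 bases.

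The promoters bear on the question of which genes hold the letters that MTF1 recognises. The MRE core was searched as TGCACNC or TGCGCNC on both strands in RefSeq promoters (GRCm38.p6), which run from 250 bases before to 50 after a gene's start. The stretches upstream of the GENCODE start are shown for the 3 genes with a match, on the plus strand, with MRE cores in capitals.
Mt2, chr8:94172368-94172663: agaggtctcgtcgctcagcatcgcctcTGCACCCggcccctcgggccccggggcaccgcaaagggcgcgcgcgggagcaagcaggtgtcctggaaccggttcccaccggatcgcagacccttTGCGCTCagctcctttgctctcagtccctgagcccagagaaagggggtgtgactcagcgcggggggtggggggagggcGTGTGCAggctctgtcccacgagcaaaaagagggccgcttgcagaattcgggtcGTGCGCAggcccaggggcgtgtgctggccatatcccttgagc
Mt1, chr8:94178839-94179081: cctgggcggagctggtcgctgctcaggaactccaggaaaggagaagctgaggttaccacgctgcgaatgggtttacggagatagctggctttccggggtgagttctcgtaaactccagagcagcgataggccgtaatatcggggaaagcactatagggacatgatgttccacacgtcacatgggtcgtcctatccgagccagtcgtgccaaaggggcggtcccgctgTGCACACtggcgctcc
Slc30a1, chr1:191906531-191906766: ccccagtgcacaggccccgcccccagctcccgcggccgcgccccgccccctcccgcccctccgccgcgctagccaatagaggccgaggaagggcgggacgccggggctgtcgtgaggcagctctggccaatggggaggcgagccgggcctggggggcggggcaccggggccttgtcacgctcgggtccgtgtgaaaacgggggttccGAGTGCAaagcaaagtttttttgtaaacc
The Mt2 window held 4 cores, all in the stretch shown. The Mt1 window held 3, of which 1 is shown and 2 lie past the GENCODE start, and the Slc30a1 window held 2, of which 1 is shown. Of 32851 promoters of this length from 27025 genes, 25.7% held at least 1 such core, 7.114% at least 2 and 1.969% at least 3. The Mtf1 window and both Slc39a10 windows held none, and Slc39a14 was not matched to this table.
The antioxidant response element core TGACNNNGC, the site of NRF2, occurred once in the Mt2 window and once in the Slc30a1 window, against 12.39% of all promoters with at least 1. The letters TTCNNNGAA, a short form of the STAT site, occurred once in 1 of the 2 Slc39a10 windows, against 8.298% of all promoters. The E-box CACGTG, present in 7.15% of promoters, occurred in none of the windows. No match of one motif overlapped a match of another in these windows. These are matches of letters and were not tested as binding sites.

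The libraries held 30711895, 37857672 and 43081847 counts in Cdo1KKO/Sed and 41261814, 28145261 and 43872779 in WT/Sed. Cdo1 itself averaged 59.8% of its WT/Sed level in Cdo1KKO/Sed (log2 fold change -0.74 ± 0.06, edgeR adjusted p = 4.64e-06). Levels below are the deposited TPM, which are counts per exonic length scaled to a common total, given per library or as a group mean ± SD. Fold changes were fitted by edgeR to the counts with TMM scaling (trimmed mean of M-values), as the log2 of Cdo1KKO/Sed over WT/Sed, and follow with their approximate SE. Genes are said to have risen or fallen where the adjusted p over all tested genes was under 0.05. The groups differed widely: 37.4% of the tested genes were called, 18.9% as higher and 18.5% as lower, and 50.3% had no overlap between the groups in CPM. On the TPM scale plus 1 the median of all genes lay 0.19 higher in Cdo1KKO/Sed on the log2 scale, against 0.01 in the TMM-scaled fit, so ratios of TPM run above the fitted fold changes.

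Of the 6 genes, Mt1, Mt2, Slc39a14 and Slc39a10 rose in Cdo1KKO/Sed kidneys, and neither Mtf1 nor Slc30a1 passed the test in either direction. The 4 that rose were also the 4 whose CPM did not overlap between the groups. These 4 of 6 stand beside 18.9% of all tested genes called higher and 50.3% without overlap. In the plot of TPM by library, the risen genes are those whose Cdo1KKO/Sed points all lie far above the WT/Sed points.

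**Figure D1:**
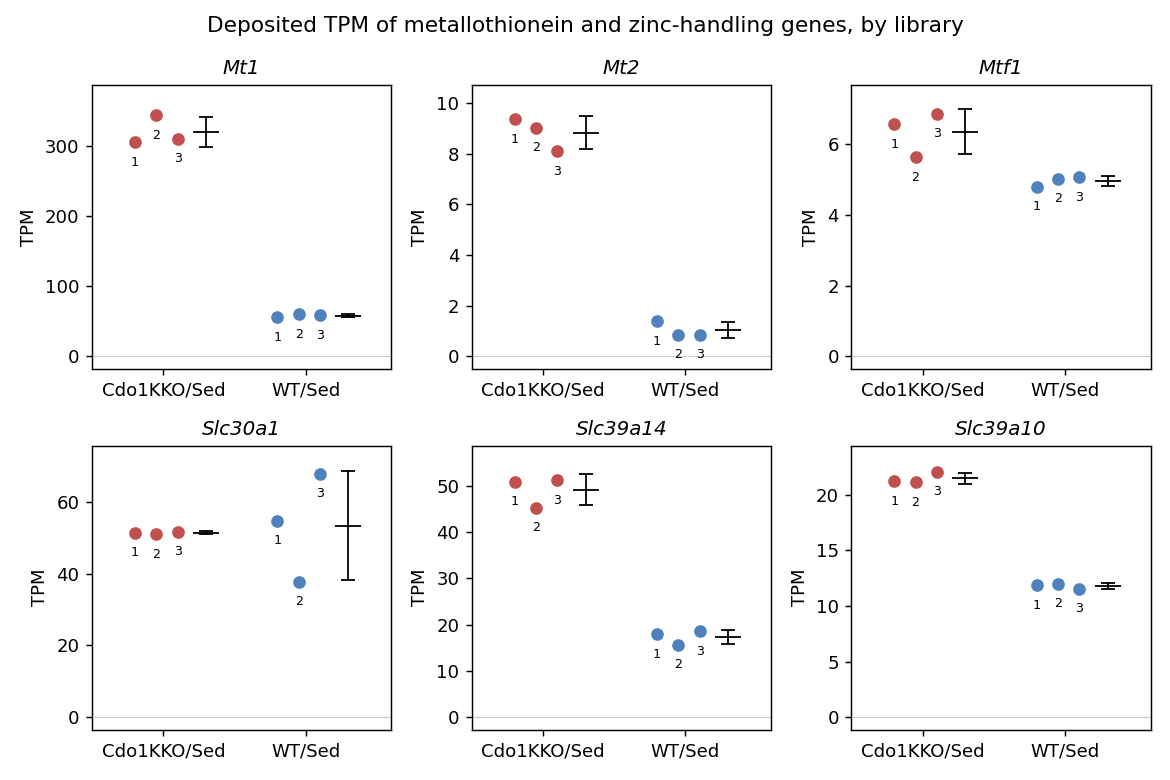
Deposited TPM of the 6 genes in each library, with Cdo1KKO/Sed on the left and WT/Sed on the right of each panel. Points are libraries numbered by replicate, and the bar beside them is the mean with SD (n = 3). Mt1 lay at 305.6 to 344.1 TPM in Cdo1KKO/Sed and at 55.7 to 60.0 TPM in WT/Sed, while for Slc30a1 the WT/Sed libraries lay on both sides of the Cdo1KKO/Sed ones.

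Mt1 had the highest mean TPM of the 6 genes in both groups, by a wide margin in Cdo1KKO/Sed only. It had 305.6, 344.1 and 310.8 TPM in the Cdo1KKO/Sed libraries, against 55.7, 60.0 and 58.3 TPM in the WT/Sed libraries. Every Cdo1KKO/Sed library was above every WT/Sed library, and within each group the libraries were close together. The means were 320.2 ± 20.9 TPM in Cdo1KKO/Sed and 58.0 ± 2.17 TPM in WT/Sed (SD, n = 3 each). The fitted log2 fold change was 2.21 ± 0.07 (approximate 95% interval 2.06 to 2.36, a 4.64-fold rise; edgeR adjusted p = 3.33e-09). This placed Mt1 above 98.3% of the tested genes by mean TPM in Cdo1KKO/Sed and above 90.2% in WT/Sed. These values rest on 17470 counts in Cdo1KKO/Sed and 3376 in WT/Sed. The length behind the deposited TPM of Mt1 was 1246 bases, the union of its annotated exons, while its coding transcript has 549 bases. Its level relative to other genes depends on that length, and its fold change does not.

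Mt2 was counted far less often than Mt1 and also rose. Its TPM was 9.36, 9.02 and 8.09 in the Cdo1KKO/Sed libraries, against 1.39, 0.857 and 0.856 in the WT/Sed libraries. The groups did not overlap, and WT/Sed replicate 1 was the highest of its group. The group means were 8.82 ± 0.655 TPM in Cdo1KKO/Sed and 1.03 ± 0.308 TPM in WT/Sed (SD, n = 3 each). The fitted log2 fold change was 2.81 ± 0.32 (approximate 95% interval 2.10 to 3.52; edgeR adjusted p = 5.21e-05). The counts behind it were 66, 79 and 80 in Cdo1KKO/Sed and 14, 6 and 9 in WT/Sed. The exact Poisson 95% interval of the lowest WT/Sed count reached from 2.20 to 13.1, which covers counting error only and treats each count as independent.

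The low level of Mt2 stands beside an annotation overlap. GENCODE M21 places the antisense gene Gm45774 on the minus strand from 94170748 to 94173412, across 432 of the 588 exonic bases of Mt2 (73.47%), which leaves 156 bases free of overlap. Whether the authors counted by strand, and what they did with reads over 2 genes, was not stated in the sources used here. Gm45774 itself had 11, 27 and 24 counts in the Cdo1KKO/Sed libraries and 2, 1 and 0 in the WT/Sed libraries. It was higher in every Cdo1KKO/Sed library, with a count ratio of 18.6 after scaling for library size (95% counting interval 6.09 to 92.8). This interval treats each count as independent. Reads of Mt2 and of Gm45774 cannot be told apart over the shared bases if the counting ignored strand. With the counts of both genes summed, the log2 fold change was 3.01 ± 0.31 (edgeR adjusted p = 2.32e-05), an alternative added after the data were seen. The sum cannot bring back reads that were dropped for lying over both genes, if any were. The part of the overlap in the low Mt2 counts was not tested, so the TPM of Mt2 is not read as an amount relative to Mt1.

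**Figure D2:**
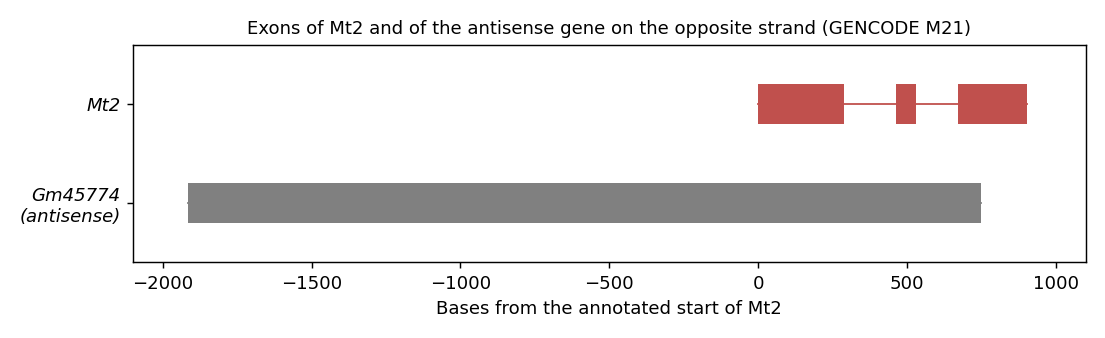
Exons of Mt2 (upper row, boxes joined by introns) and of the antisense gene Gm45774 (lower row), drawn to scale in bases from the annotated start of Mt2. Gm45774 covers the first and second exons of Mt2 and the start of the third, 73.47% of its exonic bases.

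The ratio of Mt2 to Mt1 was compared within each library, where it does not depend on library scaling. The ratio of their TPM was 0.0306, 0.0262 and 0.0260 in the Cdo1KKO/Sed libraries, against 0.0250, 0.0143 and 0.0147 in the WT/Sed libraries. The groups did not overlap, but the highest WT/Sed ratio lay close to the lowest Cdo1KKO/Sed ratio. The mean log2 ratio was 0.66 higher in Cdo1KKO/Sed, with p = 0.1 in an exact 2-sided permutation test, the smallest p that 3 libraries against 3 allow. With 1 added to each TPM the difference was -0.16 (exact permutation p = 0.5), so its direction depends on how the low Mt2 values are treated.

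The other metallothioneins were near or below detection. Mt3, known mainly from brain, had 12, 24 and 22 counts in Cdo1KKO/Sed and 16, 8 and 8 counts in WT/Sed, and the groups overlapped. Its log2 fold change was 0.69 ± 0.46 (edgeR adjusted p = 0.276), and the call depended on the scale, with adjusted p = 0.0388 on TPM plus 1 in limma. Mt4, known from stratified epithelia, had 2, 0 and 4 counts in Cdo1KKO/Sed and none in WT/Sed and was not tested. A count of 0 over the WT/Sed libraries allows a level of up to 0.0281 CPM, if each count is independent. Of the 3 metallothioneins tested, 2 rose and none fell, beside 18.9% of all tested genes called higher and 18.5% called lower.

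Mtf1, the factor that senses zinc and binds the MRE, was not called. By mean TPM it stood above 45.6% of the tested genes in Cdo1KKO/Sed and above 45.8% in WT/Sed. It had 6.56, 5.63 and 6.86 TPM in Cdo1KKO/Sed, against 4.79, 5.02 and 5.06 TPM in WT/Sed. Each Cdo1KKO/Sed value was above each WT/Sed value in TPM, but in TMM-scaled CPM the groups overlapped, with 21.5, 18.8 and 22.4 CPM in Cdo1KKO/Sed and 18.8, 19.9 and 19.6 CPM in WT/Sed. The fitted log2 fold change was 0.10 ± 0.08 (approximate 95% interval -0.08 to 0.29; edgeR adjusted p = 0.368). The call depended on the scaling. Scaled by library size alone, the log2 fold change was 0.27 (edgeR adjusted p = 0.0261), and on TPM plus 1 it was 0.30 (limma adjusted p = 0.0277). In these settings the median of all genes was itself higher in Cdo1KKO/Sed, by 0.18 and 0.19 on the log2 scale. With TPM plus 1 centred on the median gene, an alternative added after the data were seen, the log2 fold change of Mtf1 was 0.11. The gene lies on chromosome 4, from 124802104 to 124849800.

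Slc30a1, the exporter ZnT1 that carries zinc out across the plasma membrane, was not called. Its level was 51.5, 51.0 and 51.8 TPM in Cdo1KKO/Sed, against 54.8, 37.7 and 68.0 TPM in WT/Sed. The Cdo1KKO/Sed libraries were nearly equal, whereas the WT/Sed libraries spread widely, with replicate 3 the highest and replicate 2 the lowest, and the groups overlapped. The coefficient of variation of its CPM was 0.59% in Cdo1KKO/Sed and 27.1% in WT/Sed. The log2 fold change was -0.31 ± 0.20 (approximate 95% interval -0.82 to 0.21; edgeR adjusted p = 0.304), an interval that holds both a modest fall and a small rise. One library decided the call: without WT/Sed replicate 2 the log2 fold change was -0.49 and the adjusted p 1.84e-05. The same 2 libraries stood farthest apart over all genes, with a chi-square per degree of freedom of 32.9 against 3.27 to 12.2 for the other pairs within a group. Slc30a1 lies on chromosome 1, from 191906767 to 191913247, and 8.92% of its exonic bases overlap an antisense gene.

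Slc39a14, the importer ZIP14, carries zinc and also iron and manganese into cells. It had 50.9, 45.3 and 51.2 TPM in Cdo1KKO/Sed, against 17.9, 15.6 and 18.6 TPM in WT/Sed. The groups were well separated, with replicate 2 the lowest library of both. The mean was 49.2 ± 3.34 TPM in Cdo1KKO/Sed and 17.4 ± 1.55 TPM in WT/Sed (SD, n = 3 each). The log2 fold change was 1.25 ± 0.07 (approximate 95% interval 1.10 to 1.40, a 2.37-fold rise; edgeR adjusted p = 2.12e-07). In GRCm38 it occupies positions 70303469 to 70351425 of chromosome 14, minus strand.

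Slc39a10, the importer ZIP10 of the plasma membrane, rose by less. It had 21.2, 21.1 and 22.1 TPM in Cdo1KKO/Sed, against 11.9, 12.0 and 11.5 TPM in WT/Sed. All Cdo1KKO/Sed libraries were above all WT/Sed libraries, and the spread within both groups was small. Group means were 21.5 ± 0.526 TPM in Cdo1KKO/Sed and 11.8 ± 0.237 TPM in WT/Sed (SD, n = 3 each). The log2 fold change was 0.61 ± 0.06 (approximate 95% interval 0.48 to 0.74, a 1.53-fold rise; edgeR adjusted p = 1.43e-05). In GRCm38 it occupies positions 46807544 to 46892852 of chromosome 1, minus strand.

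The 2 importers moved by different folds. The ratio of Slc39a14 to Slc39a10 in TPM was 2.40, 2.14 and 2.32 in the Cdo1KKO/Sed libraries, against 1.51, 1.30 and 1.61 in the WT/Sed libraries. The ratio was higher in every Cdo1KKO/Sed library. The mean log2 ratio differed by 0.64, with p = 0.1 in an exact 2-sided permutation test, the smallest p possible.

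By mean TPM the order in Cdo1KKO/Sed was Mt1, Slc30a1, Slc39a14, Slc39a10, Mt2 and Mtf1, and the libraries of Slc30a1 and Slc39a14 overlapped. In WT/Sed the order was Mt1, Slc30a1, Slc39a14, Slc39a10, Mtf1 and Mt2, and those of Mt1 and Slc30a1 overlapped. Other neighbours in each order did not overlap between libraries. Thus, by deposited TPM, Mt1 and Slc30a1 stood at similar levels in WT/Sed kidneys and far apart in Cdo1KKO/Sed kidneys. The nearness in WT/Sed depends on the length of 1246 bases used for Mt1, whose coding transcript has 549 bases.

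The 4 calls among the 6 genes held under every alternative tried, as the plot of fold changes by setting shows. The log2 fold change of Mt1 ranged from 2.15 to 2.46, that of Mt2 from 2.09 to 3.09, that of Slc39a14 from 1.19 to 1.50 and that of Slc39a10 from 0.58 to 0.86. For Mtf1 the range was 0.04 to 0.35 and for Slc30a1 -0.49 to -0.01, and calls of these 2 genes appeared in some settings.

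**Figure D3:**
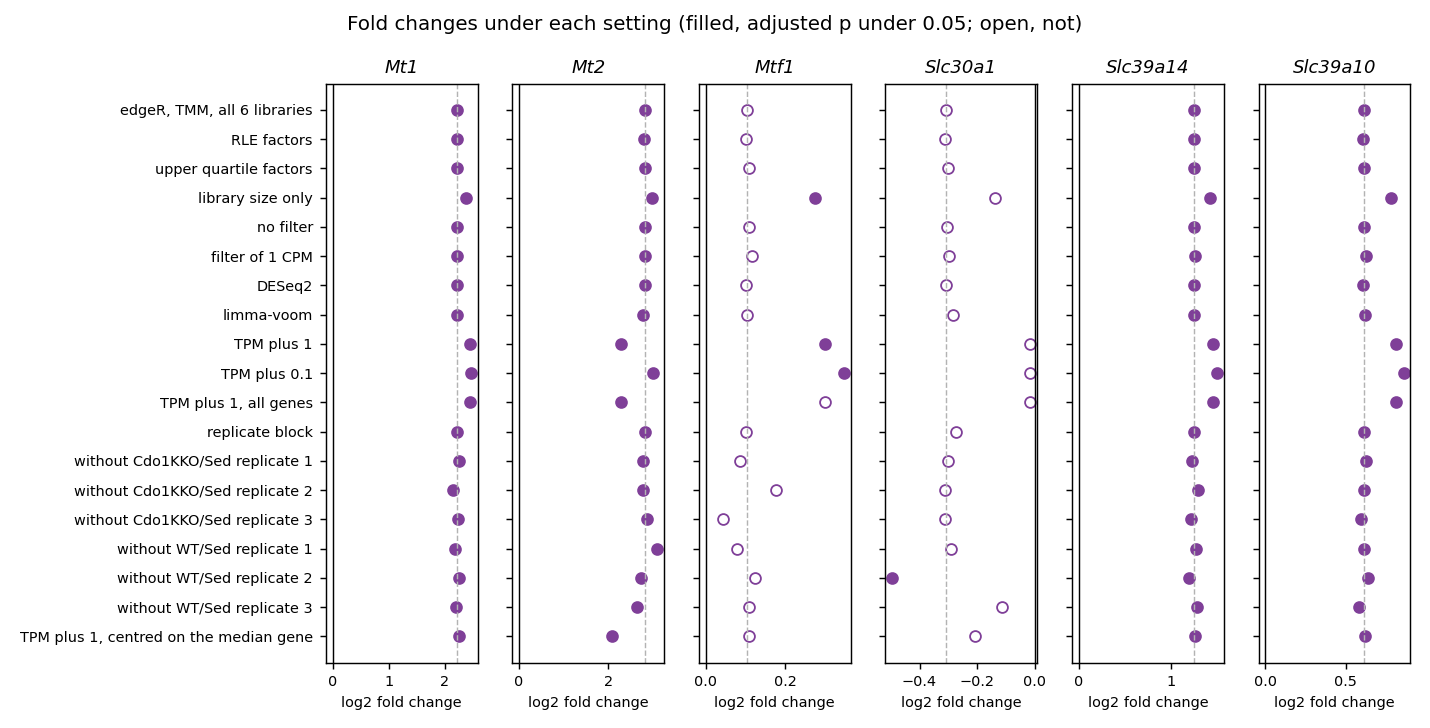
Log2 fold change of Cdo1KKO/Sed over WT/Sed for the 6 genes (panels, each with its own axis) under each setting (rows). Filled points have an adjusted p under 0.05 and open points do not, the solid line marks 0 and the dashed line the value in the top row. Mt1, Mt2, Slc39a14 and Slc39a10 are filled in every row, Mtf1 in 3 rows and Slc30a1 in 1 row.

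The ZnT family as a whole did not move in one direction. Of its 10 genes, 7 were tested, of which 2 rose, 3 fell and 2 were not called, and the median log2 fold change was -0.19, against 0.01 over all tested genes. These calls stand beside 18.9% of all tested genes called higher and 18.5% called lower. Slc30a7, which loads zinc into the Golgi, rose to 8.70 ± 0.340 TPM in Cdo1KKO/Sed, against 4.98 ± 0.716 TPM in WT/Sed (log2 fold change 0.55 ± 0.09, edgeR adjusted p = 0.000606). Slc30a4, a transporter of intracellular vesicles, rose with a log2 fold change of 0.24 ± 0.08 (edgeR adjusted p = 0.0279), a call that failed in 4 of the 6 fits with 1 library left out, namely without any one of the Cdo1KKO/Sed libraries and without WT/Sed replicate 1 (adjusted p = 0.0679 to 0.114).
The decreases were small and depended on the scaling. Slc30a2, which fills vesicles with zinc, fell by 0.33 on the log2 scale, and Slc30a9, a mitochondrial zinc transporter, fell by 0.25. Slc30a5, which works in the Golgi as a pair with Slc30a6, fell by 0.19, and Slc30a6 was not called at -0.19 ± 0.08. Neither Slc30a2, Slc30a5 nor Slc30a9 was called with library size only or on uncentred TPM, and on TPM plus 1 the log2 fold changes were -0.07 for Slc30a2, 0.06 for Slc30a5 and 0.0011 for Slc30a9. With TPM plus 1 centred on the median gene, the Slc30a2 log2 fold change was -0.26 and was called (limma adjusted p = 0.0344), and Slc30a5 (-0.13, 0.18) and Slc30a9 (-0.19, 0.0504) were not called. The calls of Slc30a2 and Slc30a5 were also lost without Cdo1KKO/Sed replicate 3 (edgeR adjusted p = 0.0504 and 0.0793), and that of Slc30a5 without Cdo1KKO/Sed replicate 1 or 2 or WT/Sed replicate 1 (0.0739 to 0.0886). Slc30a3, Slc30a8 and Slc30a10 had between 2 and 20 counts in all and were not tested. The summed TPM of the family was 231.2 ± 1.96 in Cdo1KKO/Sed and 224.6 ± 15.8 in WT/Sed, of which Slc30a1 made up 22.3 ± 0.332% and 23.6 ± 5.15%. In TMM-scaled CPM the sum went the other way, at 536.0 to 541.7 CPM in Cdo1KKO/Sed and 568.8 to 660.5 CPM in WT/Sed. The direction of the family sum thus depended on the scale, and the sums were not tested.

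The ZIP family also moved in both directions, with its larger changes upward apart from Slc39a5. Of its 14 genes, 12 were tested: 4 rose, 3 fell and 5 were not called, with a median log2 fold change of 0.07. Over all tested genes, 18.9% were called higher and 18.5% lower. Beside Slc39a14 and Slc39a10, the genes that rose were Slc39a6 and Slc39a1. Slc39a6, ZIP6, a close relative and partner of ZIP10, averaged 9.95 ± 0.444 TPM in Cdo1KKO/Sed and 4.06 ± 0.237 TPM in WT/Sed (log2 fold change 1.04 ± 0.10, edgeR adjusted p = 1.43e-05). Slc39a1, ZIP1, a plasma membrane importer found in many tissues, averaged 94.0 ± 3.12 TPM in Cdo1KKO/Sed and 55.5 ± 2.78 TPM in WT/Sed (0.51 ± 0.05, adjusted p = 2.85e-05 in edgeR). It had the highest deposited TPM of the ZIP genes in both groups.
Slc39a5, ZIP5, an importer of the basolateral membrane in intestine and pancreas, fell to 15.1 ± 0.980 TPM in Cdo1KKO/Sed, against 31.7 ± 3.06 TPM in WT/Sed. Its log2 fold change was -1.32 ± 0.09 (edgeR adjusted p = 1.17e-06), the only decrease of more than 2-fold among the tested zinc transporters. Slc39a11 and Slc39a13, importers described at internal membranes, fell by 0.45 and 0.28 on the log2 scale. On TPM plus 1 neither was called, at -0.19 and -0.03, but both were called lower with TPM plus 1 centred on the median gene. The call of Slc39a13 was also lost without Cdo1KKO/Sed replicate 1 (edgeR adjusted p = 0.0728).
Slc39a8, ZIP8, the closest relative of ZIP14, was not called at -0.47 ± 0.16 (edgeR adjusted p = 0.0582). It had 24.0, 22.2 and 23.1 TPM in Cdo1KKO/Sed, against 27.1, 20.3 and 33.0 TPM in WT/Sed, the same order of the WT/Sed libraries as for Slc30a1. In TMM-scaled CPM, Slc39a8 did not overlap between the groups, with 67.6, 63.9 and 64.9 CPM in Cdo1KKO/Sed and 91.2, 69.5 and 109.9 CPM in WT/Sed. It was called lower in 6 of 18 alternatives, among them DESeq2 (-0.47, adjusted p = 0.00097), upper quartile factors (0.0476), a filter of 1 CPM (0.0482), and the fits without WT/Sed replicate 2 (-0.62, edgeR adjusted p = 9.03e-07) or WT/Sed replicate 3 (-0.30, 0.0322). Slc39a2, Slc39a3, Slc39a7 and Slc39a9 were not called. Slc39a9, at 0.06 ± 0.06, was called higher with library size only (0.23, edgeR adjusted p = 0.00952) and on uncentred TPM (0.30 to 0.31, limma adjusted p = 0.00907 to 0.0212). For Slc39a7, 80.65% of the exonic bases overlap another gene on the same strand, so its low TPM is uncertain. Slc39a4 and Slc39a12 were too low to test. Without WT/Sed replicate 2, 5 ZIP genes were called lower in place of 3.

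**Figure D4:**
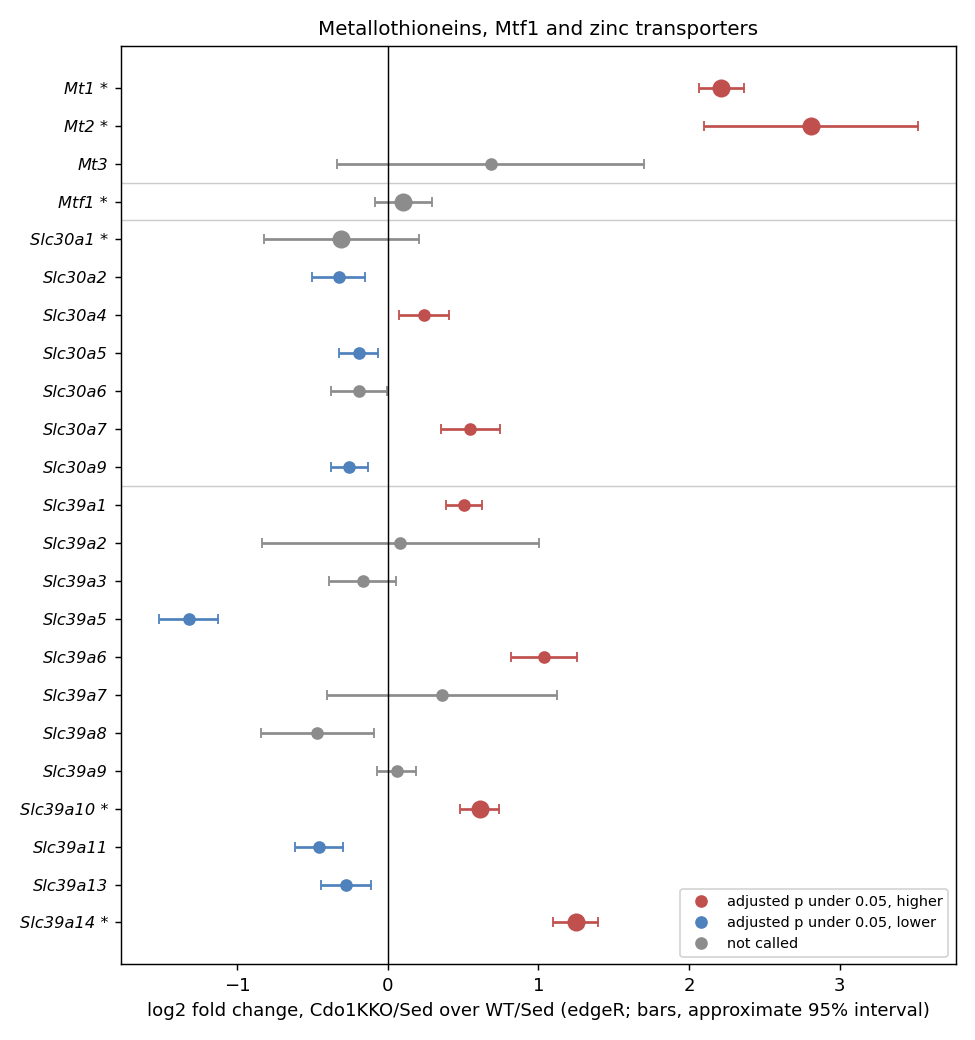
Log2 fold change of Cdo1KKO/Sed over WT/Sed with an approximate 95% interval for the tested metallothioneins (top), Mtf1, the ZnT genes and the ZIP genes (bottom). Red marks genes called higher, blue genes called lower and grey genes not called, and large points with a star are the 6 genes followed here. Mt1 and Mt2 have the largest rises, at 2.21 and 2.81, and Slc39a5 the largest decrease, at -1.32.

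The make-up of the ZIP transcripts shifted with these changes. The summed TPM of the 14 ZIP genes was 271.2 ± 7.61 in Cdo1KKO/Sed and 204.2 ± 15.1 in WT/Sed (SD, n = 3 each). Slc39a14 made up 18.8%, 17.2% and 18.4% of that sum in the Cdo1KKO/Sed libraries, against 8.52%, 8.36% and 8.62% in the WT/Sed libraries. Slc39a10 made up 7.92 ± 0.105% of the sum in Cdo1KKO/Sed and 5.80 ± 0.546% in WT/Sed. Together the 2 importers held 26.0 ± 0.721% of the ZIP transcripts in Cdo1KKO/Sed and 14.3 ± 0.413% in WT/Sed, and the groups did not overlap. Slc39a7 enters the sum at its uncertain TPM, so the sum and the shares depend on it. The shares were not tested.

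Of 4 other genes reported in mouse as targets of MTF1, 2 rose, 1 fell and 1 was not called. Gclc, a subunit of the enzyme that starts glutathione synthesis, rose by a log2 fold change of 0.36 ± 0.09 (edgeR adjusted p = 0.00991). Slc40a1, the iron exporter ferroportin, rose by 0.24 ± 0.08 (edgeR adjusted p = 0.0345), a call that failed in the same 4 fits with 1 library left out (adjusted p = 0.0791 to 0.134). Ndrg1, a stress-responsive gene also induced by hypoxia, fell by 0.55 on the log2 scale (edgeR adjusted p = 0.0139). Ndrg1 was not called on TPM plus 1 (-0.28), but was called lower with TPM plus 1 centred on the median gene. Csrp1, a LIM-domain protein, was not called at -0.01 ± 0.06, and on TPM plus 1 its log2 fold change was 0.24 (limma adjusted p = 0.0113). The median of these 4 genes was 0.11, against 0.01 over all tested genes, of which 18.9% were called higher and 18.5% lower.

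Metallothionein genes are also known to respond to interleukin-6 acting through STAT3, to glucocorticoids and, in some settings, to NRF2, and Slc39a14 is a known interleukin-6 target in mouse liver. Of 7 genes of interleukin-6 and STAT3 signalling, 5 rose and none fell, with a median log2 fold change of 0.70. Stat3 rose by 1.39 ± 0.06 and Socs3, the feedback inhibitor that STAT3 induces, by 4.20 ± 0.36, while Jak1 rose by 0.26 ± 0.06 and the receptor Il6ra by 0.70 ± 0.20 (edgeR adjusted p = 2.35e-08 to 0.0175). The call of Il6ra was lost without Cdo1KKO/Sed replicate 1 or 3 or WT/Sed replicate 1 (edgeR adjusted p = 0.0582 to 0.0862) and on TPM plus 1 centred on the median gene (0.32, limma adjusted p = 0.094). Il6 had 44, 42 and 88 counts in Cdo1KKO/Sed and 0, 2 and 0 in WT/Sed, for which the count ratio scaled for library size was 78.5 (95% counting interval 21.4 to 653.1). All of these Il6 counts were even, and the interval is too narrow if both reads of a pair were counted.
Of 8 genes for the glucocorticoid receptor and its induced genes, 1 rose and 5 fell, with a median of -0.68. The receptor Nr3c1 rose by 0.43 ± 0.05, while Tsc22d3 fell by 1.03, Fkbp5 by 0.83, Zbtb16 by 1.83, Sgk1 by 1.71 and Klf9 by 0.53 on the log2 scale (edgeR adjusted p = 1.79e-06 to 0.0236). Sgk1 was no longer called without WT/Sed replicate 1 or without any one of the Cdo1KKO/Sed libraries (0.0603 to 0.0734). Klf9 was not called on TPM plus 1 (-0.26), but was called lower with TPM plus 1 centred on the median gene. All 7 NRF2 targets rose, with a median of 0.63, although the call of Gclm, at 0.17 ± 0.05, was lost without Cdo1KKO/Sed replicate 1 or 3 or WT/Sed replicate 1 (edgeR adjusted p = 0.0518 to 0.0725). Among them were Hmox1, heme oxygenase, at 2.17 ± 0.12, Srxn1, sulfiredoxin, at 1.09 ± 0.08, Gsr, glutathione reductase, at 0.63 ± 0.05, and the cystine importer Slc7a11 at 4.79 ± 0.33 (edgeR adjusted p = 1.29e-06 to 4.26e-06). The calls in the interleukin-6, glucocorticoid and NRF2 lists stand beside 18.9% of all tested genes called higher and 18.5% called lower. These lists describe the same kidneys, and a relation of any of them to the metallothioneins was not tested.

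The cells that make up the kidneys also differed between the groups by their markers, and in whole tissue fewer cells of a type and less RNA per cell cannot be told apart. All 8 proximal tubule markers fell, with a summed level of 5647 to 6171 CPM in Cdo1KKO/Sed and 9417 to 9989 CPM in WT/Sed. Macrophage markers had 4 of 6 higher and 1 lower, with sums of 77.2 to 78.0 CPM in Cdo1KKO/Sed and 51.4 to 77.1 CPM in WT/Sed. All 4 tested neutrophil markers rose, with sums of 13.7 to 17.0 CPM in Cdo1KKO/Sed and 1.57 to 2.83 CPM in WT/Sed. All 5 red blood cell markers rose, with sums of 409.7 to 432.7 CPM in Cdo1KKO/Sed and 26.7 to 54.2 CPM in WT/Sed. All 5 fibroblast and pericyte markers rose, with sums of 65.1 to 76.8 CPM in Cdo1KKO/Sed and 24.2 to 35.4 CPM in WT/Sed. Of the hepatocyte markers, which bear on liver RNA, none of the 4 tested rose and 1 fell, with sums of 92.9 to 101.3 CPM in Cdo1KKO/Sed and 159.7 to 231.6 CPM in WT/Sed.
Other kidney markers went both ways: 3 of 4 for the thick ascending limb and 2 of 3 for the distal convoluted tubule were higher, and 1 lower in the thick ascending limb. For the collecting duct 1 of 6 was higher and 2 were lower, for podocytes 1 of 4 was lower, and for endothelium none of 4 was called. For T and B lymphocytes 2 of 6 were higher. Only 1 pancreas marker and 1 adrenal marker could be tested, of which the pancreas marker was lower, and 3 pancreas and 2 adrenal markers had no count in any library. No marker of the other lists was at 0 in every library. Leaving out 1 library moved some of these counts: 2 macrophage markers were higher without WT/Sed replicate 1 or without any one of the Cdo1KKO/Sed libraries, and 3 hepatocyte markers were lower without WT/Sed replicate 2. For T and B lymphocytes 1 marker was higher in 5 of the 6 fits with a library left out, the exception being WT/Sed replicate 2, and in the collecting duct 3 were higher without WT/Sed replicate 2. The number of podocyte markers called lower was 0 without Cdo1KKO/Sed replicate 1 or 3 and 2 without WT/Sed replicate 3. No macrophage marker was lower without Cdo1KKO/Sed replicate 1. The scaling also moved these counts. On TPM plus 1, 2 endothelium and 4 collecting duct markers were higher, and no thick ascending limb, podocyte or macrophage marker was lower. With library size only, 3 collecting duct markers were higher and no macrophage marker was lower. The marker calls of the TMM-scaled fit to all 6 libraries stand beside 18.9% of all tested genes called higher and 18.5% called lower. The part of cell make-up in the levels of Mt1, Mt2, Slc39a14 and Slc39a10 was not tested.

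For each of the 6 genes, the 3 genes most like it in pattern were those with the smallest root mean square difference in log2 CPM over the 6 libraries, after subtracting the WT/Sed mean, among 13836 genes with a mean of at least 1 CPM. Nearest to Mt1 were Samhd1 (0.0898), Ifit2 (0.0960) and Ciita (0.101). Nearest to Mt2 were Trim6 (0.0762), Gm50012 (0.172) and Gm26460 (0.180). Nearest to Slc39a14 were Hpgds (0.0382), Tmcc3 (0.0651) and Rab31 (0.0666), and nearest to Slc39a10 were Sec22b (0.0221), Tank (0.0276) and Spns2 (0.0287). Nearest to Mtf1 were Uimc1 (0.0238), Cep135 (0.0334) and Nfyb (0.0337), and nearest to Slc30a1 were Mbd1 (0.0455), Baz2b (0.0458) and Hsdl2 (0.0519). The 3 nearest genes of each risen gene also rose, as the measure of likeness requires, and none of the 6 nearest to Mtf1 or Slc30a1 was called. A likeness over 6 libraries of 2 groups describes these libraries only.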

How the data were processed

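Poly(A) RNA of 6 kidney samples was sequenced with the VAHTS Universal V6 kit, per the labels. The authors deposited whole-number counts per gene and TPM for the same 55401 identifiers. The submitters' processing notes name fastp 0.23.4, GRCm38 and mm10, and the sources used here give no aligner, counting tool or strandedness. The deposited TPM imply the exon-union length of GENCODE M21 within 1% in 100% of 15122 genes with at least 100 counts, and gene positions were taken from that release, which holds 55141 of the identifiers. Promoters are from RefSeq.

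Genotype was tested on the counts with edgeR 4.0.16 (R 4.3.3), using filterByExpr, TMM and the robust quasi-likelihood F test. Benjamini-Hochberg adjustment ran over the 17194 genes kept, with a threshold of 0.05. The approximate SE is the log2 fold change divided by the square root of F. Ratios were compared by exact permutation tests. Alternatives used other scalings and filters, DESeq2 1.42.0, limma 3.58.1 (voom on counts, and TPM with a pseudocount of 1 or 0.1), a replicate term, and each library left out. The test script was checked on simulated counts. Libraries are labelled as biological replicates. Limits of counts of 0 use 3 counts per group. Intervals are exact Poisson for single counts, and exact given the summed counts of both groups for count ratios. These limits and intervals cover counting error only, since the labels name no molecular identifiers. They treat each count as independent. Every count of Il6, Mt3 and Mt4 was even, and the sources used here do not say whether both reads of a pair were counted. If they were, the intervals are too narrow and the limits of counts of 0 too low.

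The 6 genes, 8 function lists and 14 marker lists were chosen with earlier results of these data known. Named were the 6 genes, all tested metallothionein, ZnT, ZIP and MTF1 target genes, up to 4 genes of each other list by smallest p, and the 3 nearest genes in pattern. Cdo1, Gm45774, Atp7a, Slc31a2, Commd1, Atp7b, Atox1, Cox17, Il6ra, Gclm, Sgk1 and Klf9 do not come from this rule and were picked with their values in view. Python 3.11.15 with matplotlib 3.10.9 drew the figures.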

Additional observations from a re-analysis of the deposited data

How the results depend on the processing

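Under every alternative run, Mt1, Mt2, Slc39a14 and Slc39a10 were called higher. The number of the 6 genes called was 4 or 5 in all settings, and 4 to 5 when each library was left out in turn. The number of genes called in Cdo1KKO/Sed against WT/Sed was 6435, and 4682 to 7320 with 1 library left out, while 5513 were higher and 1685 lower with library size only (76.6% higher against 50.5%), or 6784 and 1246 on TPM plus 1 (84.5%). These scalings moved the median gene by 0.18 and 0.19 on the log2 scale. The results that reversed did so on TPM: the Slc30a5 log2 fold change was 0.062 on TPM plus 1, with or without the filter, and 0.064 on TPM plus 0.1, the Slc30a9 log2 fold change was 0.0011 in all 3, and that of Csrp1 was 0.24 on TPM plus 1 and 0.25 on TPM plus 0.1. With TPM plus 1 centred on the median gene, added after the data were seen, they were -0.13, -0.19 and 0.05. The ratio of Mt2 to Mt1 reversed to -0.16 with 1 added to each TPM, a construction that lifts Mt2 values near 1 TPM. With 1 library left out its difference was 0.52 to 0.93, and that of Slc39a14 to Slc39a10 was 0.55 to 0.70. With the replicate number as a block, 6146 genes and 4 of the 6 genes were called, and the paired ratio tests gave p = 0.25 for both ratios in an exact permutation test, the smallest that 3 pairs allow. Same-numbered libraries correlated at -0.0022, 0.010 and 0.013 in their deviations from the group means, and not every library correlated best with its own number. These values gave no sign of pairing by number, but correlations this near 0 cannot show that the libraries were unpaired. The replicate block changed 1 call among the zinc genes, Slc39a8 (-0.44, edgeR adjusted p = 0.0463), and 1 among the other listed genes, Sgk1 (-1.61, edgeR adjusted p = 0.0618). Depth limits Mt2, Mt3, Mt4 and Gm45774, which rest on few counts.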

Other observations

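Metallothioneins also bind copper. Of 10 genes of copper handling, 3 rose, 4 fell and 3 were not called, beside 37.4% of all tested genes called, and their median log2 fold change was -0.20, against 0.01 over all tested genes. Cp, ceruloplasmin, the copper-carrying ferroxidase of plasma, averaged 72.1 ± 5.17 TPM in Cdo1KKO/Sed and 10.2 ± 2.17 TPM in WT/Sed (SD, n = 3 each; 2.57 ± 0.14, edgeR adjusted p = 1.03e-05). Atp7a, a copper exporter, rose by 0.77 ± 0.18 and Slc31a2, a copper transporter of endosomes, by 0.28 ± 0.08 (edgeR adjusted p = 0.00873 and 0.0198). The call of Slc31a2 was lost without Cdo1KKO/Sed replicate 1 or 2 or WT/Sed replicate 1 (0.0664 to 0.0905). The call of Commd1 was lost with library size only or on TPM plus 1 (-0.18 and -0.08), but held with TPM plus 1 centred on the median gene. The genes that fell in the TMM-scaled fit were Slc31a1, the copper importer CTR1 (-0.43 ± 0.05), the copper and zinc superoxide dismutase Sod1 (-0.50 ± 0.06), its copper chaperone Ccs (-0.45 ± 0.06) and Commd1 (-0.34 ± 0.09; edgeR adjusted p = 5.28e-05 to 0.01). Atp7b, Atox1 and Cox17 were not called in that fit, at -0.20 ± 0.21, -0.19 ± 0.12 and -0.02 ± 0.13.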
